A study of Homo sapiens with 6 samples.

Results

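The kinesin, spindle and cytokinesis genes are the motors and microtubule-binding proteins that build the mitotic spindle and cut the dividing cell apart, together with the kinesins that carry cargo in cells that are not dividing. They were taken from the authors' deposited table by name: every gene whose symbol starts with KIF or HAUS and a digit, and 22 genes named singly. The rule found 52 genes of the 6831 in the table: 23 KIF names, 8 HAUS names and 21 of the 22 others. The cells were MOLM-13, a long-established line of human acute myeloid leukaemia, labelled wild type and kept for 24 h in 50 nM DEG-35 or in the solvent DMSO, with 3 RNA-seq libraries in each group. DEG-35 is, per the series title, a compound that degrades IKZF2, a zinc-finger transcription factor, and the kinase CK1A. Nothing in the labels ties the 3 libraries of a group to separate cultures, and the p-values then measure the spread between these libraries, which may be technical.

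In mitosis, motors and bundling proteins slide, cross-link, shorten and anchor microtubules until the chromosomes are held between the spindle poles. Augmin, a complex of HAUS subunits, starts new microtubules on the sides of existing ones, and the chromosomal passenger complex corrects faulty attachments and later marks the plane of division. At the end of mitosis the central spindle, the contractile ring and the midbody separate the daughter cells. Many genes of this machinery are transcribed mainly in late cell cycle stages, through promoter elements called CHR that are bound by MuvB-type complexes, as a repressor (DREAM) in resting cells and as an activator with B-MYB and FOXM1 in dividing ones.

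The authors' deposited table is limited to genes past an adjusted p of 0.05 and states the log2 fold change of each with its raw and adjusted p-value, and the order of the groups in the ratio is not stated. All directions here read it as DEG-35 over DMSO and would be the opposite under the reverse order. The table has no values of single libraries and no levels, so neither the depth of a library, the spread between replicates nor the cell line's own markers could be examined. Errors are standard errors worked back from the fold change and p-value of a gene (implied SE). The adjusted p-values imply that 15064 genes were tested, of which 45.3% were listed, 24.0% as lower and 21.4% as higher with DEG-35. Absence from the table means that a gene failed the threshold or was never tested. In bulk RNA, fewer cells in mitosis and less RNA per mitotic cell cannot be told apart.

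With DEG-35, 47 of the 52 genes were lower and 5 were higher. The RefSeq annotation has 69 protein-coding genes that the naming rule could take, and 47 of them (68.1%) were listed as lower, beside 24.0% of all tested genes; 4 (5.80%) were listed as higher, beside 21.4%. The rule also takes KIF9-AS1, an antisense RNA of KIF9. The median log2 fold change of the 52 genes was -2.04, against -0.19 for all 6831 listed genes. Falls of at least 1 on the log2 scale were listed for 35 of the 69 genes (50.7%), beside 4.08% of all tested genes. Falls of at least 2 on the log2 scale were listed for 26 of the 69 genes (37.7%), beside 1.19% of all tested genes, and these 26 made up 14.5% of the 179 falls of that size in the table. These genes made up 17 of the 100 lowest fold changes, and 52 of all 6831 listed genes. The implied standard errors ran from 0.0625 to 0.277 with a median of 0.0830, against 0.0891 for all 6831 listed genes. Leaving out KIF7 and KIF9-AS1, which had an implied standard error above 0.2, left 50 genes.

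**Figure D1:**
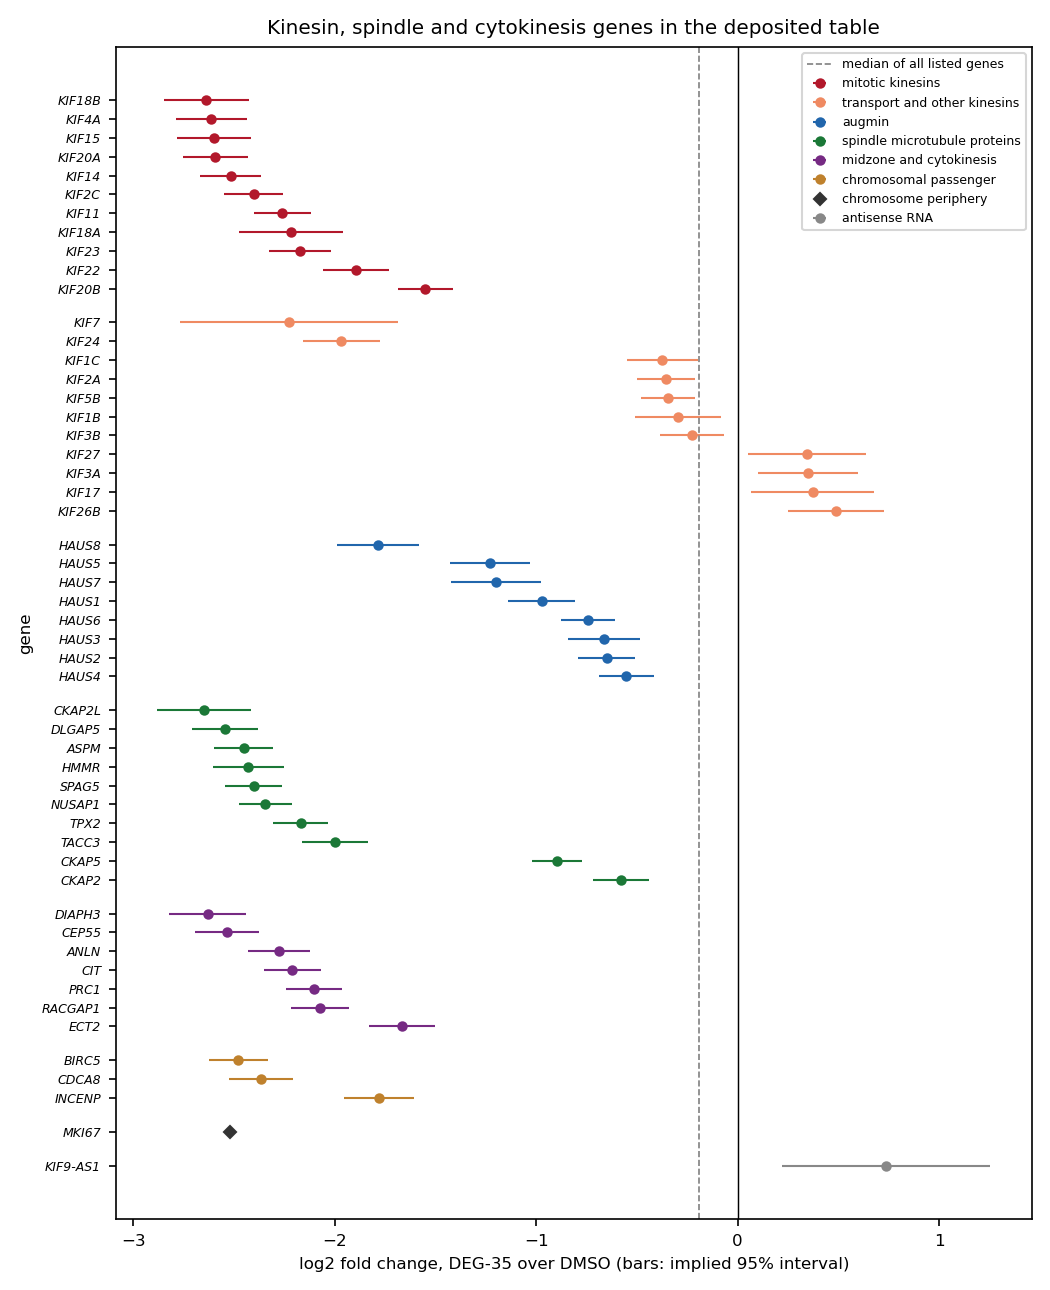
Each of the 52 genes is plotted by its log2 fold change (DEG-35 over DMSO) on the horizontal axis, coloured by role, with a bar for the 95% interval implied by its p-value; the diamond marks MKI67, whose p-value of 0 gives no interval, and the dashed line is the median of all listed genes, -0.19. The 11 mitotic kinesins lie between -2.64 and -1.55, the 8 augmin genes between -1.78 and -0.55, and of the 11 transport and other kinesins 9 lie between -0.37 and 0.49.

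Because so many of these genes were lower together, their promoters were searched for the CHR, spelled TTTGAA or TTCGAA on either strand. RefSeq promoter windows of 300 bases (250 before and 50 from the annotated start on, build GRCh38.p14) were at hand for 47 of the 52 genes, and not for BIRC5, KIF26B, KIF27, RACGAP1 and TPX2. For each role the stretch from 80 bases before to 30 bases after the start is shown for the lowest gene whose window holds a CHR match, with all CHR matches in capitals. KIF17 is shown for contrast as the kinesin with the highest fold change among those of the 52 genes with a window, and holds no match.
KIF18B: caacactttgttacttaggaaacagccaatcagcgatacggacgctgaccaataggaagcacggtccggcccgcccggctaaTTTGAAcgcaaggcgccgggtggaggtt
KIF24: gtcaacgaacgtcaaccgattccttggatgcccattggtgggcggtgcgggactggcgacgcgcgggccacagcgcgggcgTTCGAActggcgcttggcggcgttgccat
HAUS8: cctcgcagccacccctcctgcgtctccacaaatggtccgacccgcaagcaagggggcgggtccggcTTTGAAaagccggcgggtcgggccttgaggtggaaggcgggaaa
CKAP2L: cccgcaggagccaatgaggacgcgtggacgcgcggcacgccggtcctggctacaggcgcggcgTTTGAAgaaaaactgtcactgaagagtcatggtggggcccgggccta
CEP55: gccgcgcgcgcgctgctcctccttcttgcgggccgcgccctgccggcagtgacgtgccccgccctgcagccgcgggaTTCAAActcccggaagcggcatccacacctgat
CDCA8: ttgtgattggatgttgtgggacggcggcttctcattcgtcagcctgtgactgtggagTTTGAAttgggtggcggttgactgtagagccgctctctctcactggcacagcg
MKI67: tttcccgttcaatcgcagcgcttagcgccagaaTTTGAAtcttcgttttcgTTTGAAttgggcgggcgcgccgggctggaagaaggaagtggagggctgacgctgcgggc
KIF17: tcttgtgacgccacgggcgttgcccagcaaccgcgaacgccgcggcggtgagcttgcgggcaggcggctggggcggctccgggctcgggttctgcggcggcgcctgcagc
These stretches lie at chr17:44947744-44947853, minus strand (KIF18B), chr9:34329239-34329348, minus strand (KIF24), chr19:17075423-17075532, minus strand (HAUS8), chr2:112764580-112764689, minus strand (CKAP2L), chr10:93496532-93496641, plus strand (CEP55), chr1:37692436-37692545, plus strand (CDCA8), chr10:128126394-128126503, minus strand (MKI67) and chr1:20717978-20718087, minus strand (KIF17).

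The CHR letters were common in the promoters of the genes at least 1 lower on the log2 scale. Of 32 windows of genes at least 1 lower on the log2 scale, 25 (78.1%) held a match, and of the 15 windows of the remaining genes 2 (13.3%) did, those of CKAP5 and KIF5B. The division at 1 was chosen after the values were seen. Most of the 15 windows belong to augmin genes and to transport and other kinesins, so role and size of the fall were not separated here. The share was 12.4% over the 4987 listed genes with a window and 16.6% over all 27305 RefSeq windows. Most matches lay close to the start: 23 of the 32 windows (71.9%) held a match that began within 50 bases of it on either side, against 5.05% of all windows. In MKI67 the matches began 47 and 29 bases before the start, in CDCA8 23 before it, in CKAP2L 86 and 17 before it and in CEP55 116 and 3 before it. KIF18B had its match at base 3 and KIF24 at base 2, counting the start as 1. The 7 genes at least 1 lower whose window held no match were DIAPH3, HAUS5, HAUS7, KIF20A, KIF2C, KIF7 and TACC3.

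By role, a match was found in 9 of 11 mitotic kinesin windows, 7 of 9 of spindle microtubule proteins, 5 of 6 of midzone and cytokinesis genes, both windows of chromosomal passenger genes and that of MKI67. A match was held by 1 of 8 augmin windows (12.5%, HAUS8) and 2 of 9 windows of transport and other kinesins (22.2%, KIF24 and KIF5B). These shares are near the 12.4% of listed genes and the 16.6% of all windows. CCAAT boxes, CCAAT on either strand, stood in 24 of the 32 windows of genes at least 1 lower (75.0%), in 4 of the other 15 (26.7%) and in 35.7% of all windows. CCAAT and CHR letters stood together in 21 of the 32 (65.6%), against 6.58% of all windows. An E2F site, written as TTTCCCGC, TTTCGCGC, TTTGCCGC or TTTGGCGC on either strand, was found in 3 of the 32 (9.38%), in KIF15, HAUS8 and NUSAP1. The share was 6.40% over the windows of listed genes and 3.33% over all windows. A match is a string of letters and not a bound site, and no binding was measured.

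**Figure D2:**
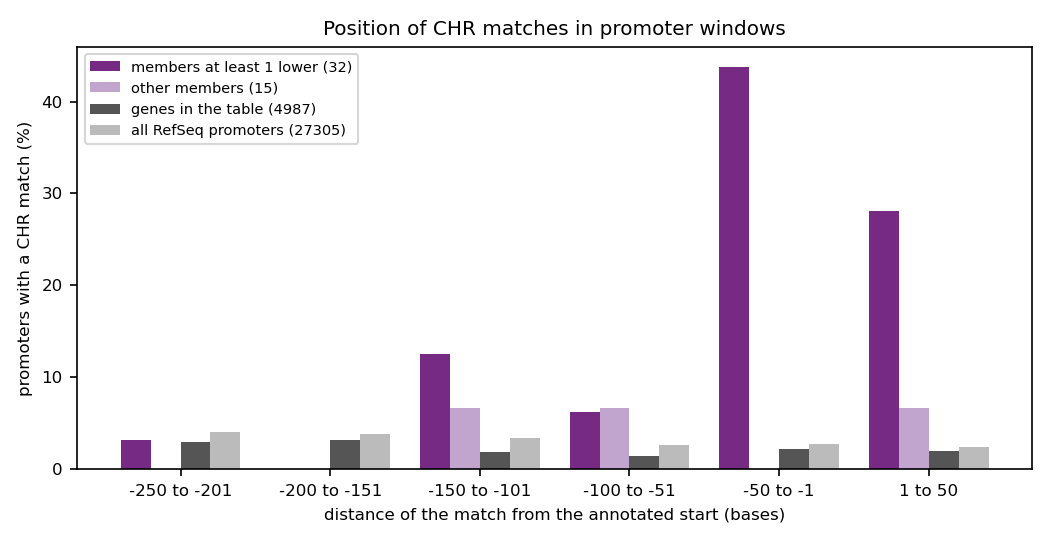
The vertical axis gives the percentage of promoter windows with a CHR match that begins in each 50-base bin, and the horizontal axis the bin's distance from the annotated start; the 4 bar colours are the 32 windows of member genes at least 1 lower, the 15 of the other members, the 4987 of all listed genes and all 27305 RefSeq windows. Among the 32, 43.8% had a match in the 50 bases before the start and 28.1% in the first 50 from it on, while every bin stays below 5% for all windows.

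In the list of mitotic kinesins every listed gene was lower, 11 of 13 (84.6%, beside 24.0% of all tested genes), with a median log2 fold change of -2.40. The depolymerases KIF2A, at -0.36, and KIF2B, not listed, also act in mitosis. They were counted with the transport and other kinesins, so the uniform fall depends on how the lists were drawn up. The lowest was KIF18B, a motor that acts on microtubule plus ends, 6.22-fold lower at -2.64 ± 0.108 (implied SE, adjusted p = 9.32e-130 in the authors' deposited table). KIF4A, a chromosome-bound motor that with PRC1 limits the length of central spindle microtubules, stood at -2.61 ± 0.0906 (adjusted p = 2.12e-180), and KIF15, which helps to keep the poles apart, at -2.60 ± 0.0938 (adjusted p = 8.02e-167) in the authors' deposited table. KIF20A, which brings the chromosomal passenger complex to the central spindle, was close to them at -2.59 ± 0.0830 in the authors' deposited table. The implied 95% intervals of these 4 genes overlap.

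Other motors of the dividing cell had smaller estimated falls, though the intervals of KIF14, KIF2C and KIF18A overlap those of KIF18B, KIF4A, KIF15 and KIF20A. In the authors' deposited table KIF14, which acts with citron kinase in cytokinesis, stood at -2.52 ± 0.0764, and KIF2C, the centromere depolymerase also called MCAK, at -2.40 ± 0.0743. KIF11 (Eg5), the motor that pushes the poles apart, was 4.79-fold lower at -2.26 ± 0.0716, and KIF18A, which damps chromosome movements at plus ends, 4.65-fold lower at -2.22 ± 0.131 in the authors' deposited table. KIF23, the motor of centralspindlin, followed at -2.17 ± 0.0788, the chromosome-arm motor KIF22 at -1.89 ± 0.0830 and KIF20B, a cytokinesis motor, at -1.55 ± 0.0693 in the authors' deposited table. The interval of KIF20B, from -1.69 to -1.41, lies above those of the other 10 listed mitotic kinesins. KIFC1, which clusters spindle poles by moving to minus ends, and KIF4B, a close copy of KIF4A, were not listed.

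Transport and other kinesins changed less and in both directions. Of 27 genes 11 were listed (7 lower, 4 higher), at a median of -0.30. The listed ones made up 40.7% of the list and the lower ones 25.9%, near the 45.3% and 24.0% of all tested genes. Here and below such shares divide by every gene of a list, including any that was never tested. The conventional kinesin heavy chain KIF5B was 1.27-fold lower at -0.34 ± 0.0682 (adjusted p = 2.37e-06), the depolymerase KIF2A 1.28-fold lower at -0.36 ± 0.0730 (adjusted p = 5.05e-06) and the organelle motor KIF1C 1.30-fold lower at -0.37 ± 0.0903 (adjusted p = 1.39e-04) in the authors' deposited table. KIF1B, a mitochondrion and vesicle motor, stood at -0.30 ± 0.109 (adjusted p = 0.0162), and KIF3B at -0.23 ± 0.0814 (adjusted p = 0.0142) in the authors' deposited table. KIF3A, which pairs with KIF3B in the heterotrimeric motor of cilia, went the other way at 0.35 ± 0.127 (adjusted p = 0.0147 in the authors' deposited table).

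The other higher kinesins were also changed by little. KIF26B, a kinesin linked to WNT5A signalling, was 1.40-fold higher at 0.49 ± 0.122 (adjusted p = 2.34e-04), KIF17, a motor of dendrites and cilia, stood at 0.37 ± 0.156 (adjusted p = 0.0390) and KIF27, a relative of KIF7, at 0.34 ± 0.150 (adjusted p = 0.0485) in the authors' deposited table. In the authors' deposited table the antisense RNA KIF9-AS1 stood at 0.74 ± 0.264 (adjusted p = 0.0138), and KIF9 itself was not listed. The falls of KIF24 and KIF7 were the largest of this group. KIF24, a centriolar kinesin that holds back cilium formation, was 3.91-fold lower at -1.97 ± 0.0984 (adjusted p = 5.51e-87), and KIF7, a Hedgehog pathway regulator at the cilium tip, 4.68-fold lower at -2.23 ± 0.277 (adjusted p = 1.02e-14) in the authors' deposited table. KIF7 overlaps TICRR, a replication initiation gene on the other strand, which stood at -2.48 ± 0.0837 in the authors' deposited table. The sources used here do not say whether reads were counted by strand, so the reads of this pair may not have been told apart. The 16 unlisted genes include KIF1A, KIF3C, KIF5A, KIF5C, KIF13A, KIF13B, KIF16B, KIF21A and KIF21B.

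**Figure D3:**
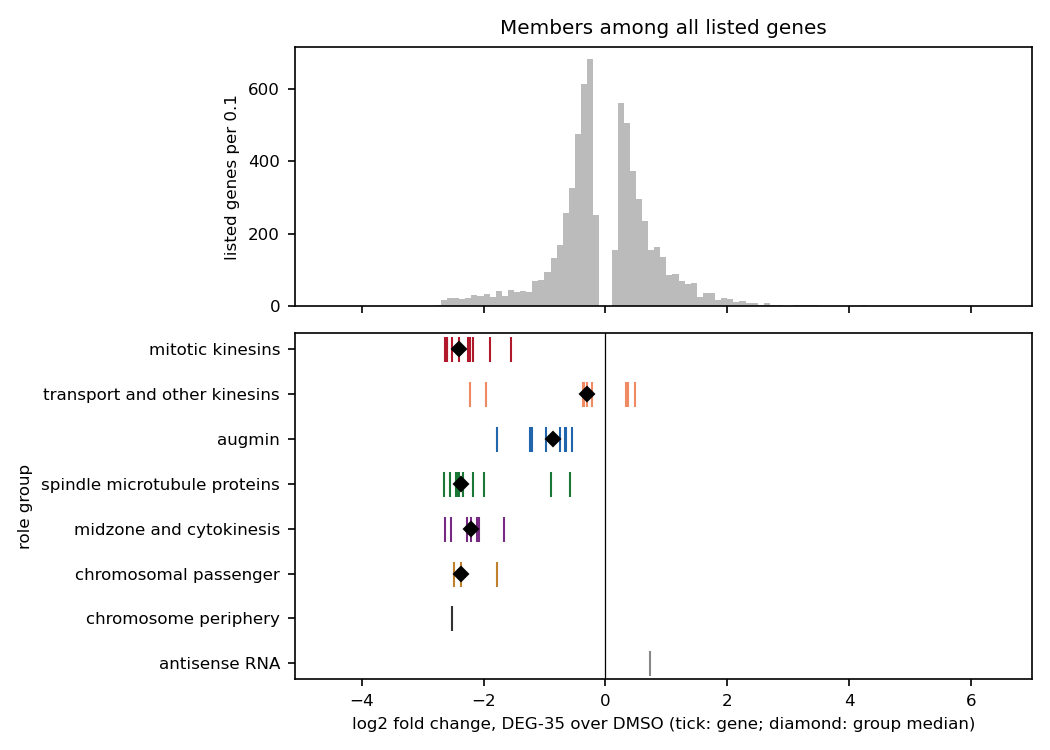
The upper panel counts all 6831 listed genes per 0.1 of log2 fold change (DEG-35 over DMSO), and the lower panel marks each member by a tick in the row of its role, with a diamond at the group median where a group has several genes. Medians of the mitotic kinesins (-2.40), the spindle microtubule proteins (-2.37), the midzone and cytokinesis genes (-2.21) and the chromosomal passenger genes (-2.36) lie in the left tail, that of augmin at -0.86 and that of the transport and other kinesins at -0.30.

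Augmin fell as a whole, with 8 of 8 subunit genes lower, beside 24.0% of all tested genes, and a median of -0.86. HAUS8, the microtubule-binding subunit, was 3.44-fold lower at -1.78 ± 0.104 (adjusted p = 1.56e-64 in the authors' deposited table). Next came HAUS5 at -1.23 ± 0.101 (adjusted p = 2.08e-32) and HAUS7 at -1.20 ± 0.113 (adjusted p = 8.35e-25) in the authors' deposited table. HAUS1 was 1.96-fold lower at -0.97 ± 0.0851, and HAUS6, which links augmin to the gamma-tubulin ring complex, 1.67-fold lower at -0.74 ± 0.0682 in the authors' deposited table. HAUS3 at -0.66 ± 0.0916, HAUS2 at -0.65 ± 0.0716 and HAUS4 at -0.55 ± 0.0697 changed least in the authors' deposited table. Subunits of the same complex thus differed in size: the interval of HAUS8, from -1.99 to -1.58, lies below those of the other 7. HAUS8 alone had CHR letters in its promoter window, and HAUS5 and HAUS7, next in size, had none. Whether the letters bear on the size of the fall was not tested. HAUS1, HAUS4, HAUS6 and HAUS8 have pseudogene copies that can share reads.

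Spindle microtubule proteins were all listed and lower, 10 of 10, beside 24.0% of all tested genes, with a median of -2.37. CKAP2L, a spindle protein of neural progenitors and other dividing cells, was 6.27-fold lower at -2.65 ± 0.119 (adjusted p = 8.61e-108 in the authors' deposited table). DLGAP5 (HURP), which stabilises the fibres that reach kinetochores, stood at -2.55 ± 0.0839 (adjusted p = 1.19e-199), and the spindle pole protein ASPM at -2.45 ± 0.0755 (adjusted p = 1.23e-228) in the authors' deposited table. HMMR, a scaffold at the poles, stood at -2.43 ± 0.0906, SPAG5 (astrin), which secures kinetochore attachment, at -2.40 ± 0.0722 and the bundling protein NUSAP1 at -2.34 ± 0.0678 in the authors' deposited table. TPX2, the activator of Aurora A and a nucleation factor, was 4.50-fold lower at -2.17 ± 0.0704, and TACC3, which joins kinetochore fibre microtubules, stood at -1.998 ± 0.0845 in the authors' deposited table.

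CKAP5 and CKAP2 stood apart from these 8. CKAP5 (ch-TOG), the microtubule polymerase that TACC3 recruits, was 1.86-fold lower at -0.90 ± 0.0625 (adjusted p = 4.52e-45), and CKAP2 1.49-fold lower at -0.58 ± 0.0708 (adjusted p = 3.43e-15) in the authors' deposited table. Their implied intervals end above -1.02 and do not overlap those of the other 8, which all lie below -1.83. CKAP2 and CKAP2L share a name and a family, and their log2 fold changes differed by -2.07 (CKAP2L minus CKAP2); CKAP2 held no CHR letters in its window, while CKAP5 held 2 matches.

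Genes of the central spindle, the contractile ring and the midbody were all lower, 7 of 7, beside 24.0% of all tested genes, with a median of -2.21. DIAPH3, a formin that grows actin filaments, was 6.20-fold lower at -2.63 ± 0.0979 (adjusted p = 5.54e-157), and CEP55, which brings the abscission machinery to the midbody, 5.80-fold lower at -2.54 ± 0.0815 (adjusted p = 5.69e-210) in the authors' deposited table. ANLN (anillin), the scaffold of the contractile ring, stood at -2.28 ± 0.0793 (adjusted p = 7.68e-179) and citron kinase, CIT, at -2.21 ± 0.0729 in the authors' deposited table. PRC1, which cross-links the antiparallel microtubules of the central spindle, stood at -2.10 ± 0.0713, and RACGAP1, the partner of KIF23 in centralspindlin, at -2.07 ± 0.0739 in the authors' deposited table. ECT2, the exchange factor that activates RhoA at the division plane, was the least lowered, 3.17-fold at -1.66 ± 0.0831 (adjusted p = 2.10e-87 in the authors' deposited table). Its interval, from -1.83 to -1.50, lies above those of the other 6.

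The chromosomal passenger genes and MKI67 were lower too. BIRC5 (survivin) was 5.57-fold lower at -2.48 ± 0.0752 (adjusted p = 2.97e-235), CDCA8 (borealin) 5.15-fold lower at -2.36 ± 0.0810 (adjusted p = 7.45e-185) and the scaffold INCENP 3.44-fold lower at -1.78 ± 0.0891 (adjusted p = 4.37e-87) in the authors' deposited table. Their kinase, AURKB, stood at -2.58 ± 0.0969 in the authors' deposited table. MKI67, which coats mitotic chromosomes and is widely used as a proliferation marker, was 5.74-fold lower at -2.52 in the authors' deposited table, with a p-value of 0 from which no error can be had.

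Relatives by name differed to unequal extents, and some in direction. The differences that follow are given without a test, since the covariance of the 2 estimates of a pair is unknown. KIF1C minus KIF1B was -0.077, while KIF2C minus KIF2A was -2.05, KIF20A minus KIF20B was -1.04 and KIF18B minus KIF18A was -0.42 on the log2 scale. TACC3 was lower than TACC1, a relative that stood at -0.80 ± 0.0656 in the authors' deposited table, by a difference of -1.20. While DIAPH3 fell, the formins DIAPH1 and DIAPH2 were higher, at 0.26 ± 0.0572 and 0.34 ± 0.0874 in the authors' deposited table. KIF7 and KIF27 differed by -2.57 (KIF7 minus KIF27).

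Reads of overlapping genes can be mixed, and 13 of the 52 genes overlap another listed gene in the GENCODE annotation. Of 18 antisense RNA genes that overlap a member on the other strand, 3 were listed and 15 were not, where 45.3% of all tested genes were listed. Most of the 15 have clone names that begin with AC or AL. Whether the authors' annotation holds such names is not known, so their absence may be a matter of naming. The 3 listed ones were lower like their gene: DIAPH3-AS1 stood at -2.95 ± 0.338, HMMR-AS1 at -2.63 ± 0.157 and PRC1-AS1 at -1.95 ± 0.0965 in the authors' deposited table. KIAA0895, which overlaps ANLN on the other strand, stood at -2.17 ± 0.202 in the authors' deposited table. In contrast TMEM42, which overlaps KIF15 on the same strand, was higher at 0.65 ± 0.157, and CDC23 and BRD8, which overlap KIF20A on the other strand, stood at -0.51 ± 0.0721 and -0.17 ± 0.0707 in the authors' deposited table. How reads of such pairs were assigned was not tested. Pseudogene copies by name exist for 11 of the 52 genes, among them MKI67, RACGAP1, KIF18B, CKAP2L and DLGAP5, and can share reads too.

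Lists of genes that work with these proteins were counted in the same way. Of 12 genes of the gamma-tubulin ring complex and its recruiters, which augmin brings to the spindle, 9 were listed and those 9 were lower (75.0%, beside 24.0% of all tested genes), at a median of -0.81. TUBG1, gamma-tubulin itself, stood at -1.17 ± 0.0947 (adjusted p = 8.70e-34) and NEDD1, the adaptor that augmin binds, at -1.05 ± 0.0797 (adjusted p = 6.57e-38) in the authors' deposited table. Of 17 genes of microtubule end-binding, severing and spindle orientation 10 were listed (58.8%, beside 45.3% of all tested genes), at a median of -0.30, 9 lower (52.9%, beside 24.0%) and 1 higher; GPSM2 (LGN), which orients the spindle, stood at -1.13 ± 0.129 and the severing protein KATNAL1 at -1.05 ± 0.130, while MAP7, a kinesin-recruiting protein, was higher at 0.34 ± 0.0982 in the authors' deposited table. Of 9 mitotic kinases that act on the spindle all 9 were listed, beside 45.3% of all tested genes. Of these, 7 were lower (77.8%, beside 24.0%) and 2 higher, where 21.4% of all tested genes were higher. CDK1 at -2.67 ± 0.0740 and PLK1 at -2.61 ± 0.0822 were lowest, and NEK6 at 0.43 ± 0.0689 and NEK9 at 0.43 ± 0.0740 were higher in the authors' deposited table.

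The general cell machinery that these proteins use was changed less uniformly. Of 15 genes of cortical actomyosin 8 were listed (53.3%, beside 45.3% of all tested genes; 3 lower, 5 higher), at a median of 0.20. ARHGAP11A, a RhoA regulator of dividing cells, stood at -1.66 ± 0.0618 and profilin, PFN1, at -0.27 ± 0.0527, whereas ARHGEF2 was higher at 0.36 ± 0.0614 and DIAPH2, given above, was next in the authors' deposited table. A further 5 septins planned for that list were left out, because 9 symbols in the table read as September dates. Of 16 abscission genes of the ESCRT machinery, which CEP55 recruits, 3 were listed (18.8%, beside 45.3% of all tested genes): CHMP1A at -0.25 ± 0.102, PDCD6IP (ALIX) at 0.16 ± 0.0661 and ZFYVE26 at 0.35 ± 0.0964 in the authors' deposited table. Of 25 cargo adaptor, dynein, dynactin and KIFC-named motor genes 11 were listed (44.0%, beside 45.3% of all tested genes; 6 lower, 5 higher), at a median of -0.24. DYNLL2 at -0.57 ± 0.0771 and KIFC3 at -0.46 ± 0.140 were lowest, and the kinesin light chain KLC4 at 0.71 ± 0.138 and KIFC2 at 0.51 ± 0.145 highest in the authors' deposited table. KIFC2 and KIFC3 are kinesin motors that the naming rule does not take, so the kinesin counts above leave them out.

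The complexes that act through the CHR had lower mRNA for each gene that was listed. Of 13 genes of the MuvB core, B-MYB, FOXM1 and the pocket protein complexes 8 were listed and those 8 were lower (61.5%, beside 24.0% of all tested genes), at a median of -1.30. MYBL2 (B-MYB) was 6.30-fold lower at -2.66 ± 0.0839 (adjusted p = 2.80e-217) and FOXM1 4.52-fold lower at -2.18 ± 0.0747 (adjusted p = 2.25e-184) in the authors' deposited table. LIN54, the MuvB subunit that contacts the CHR, stood at -1.03 ± 0.0951 in the authors' deposited table. RBL2 and E2F4, which with MuvB are part of the repressor in resting cells, were not listed. Of the same complexes, RBL1 at -1.67 ± 0.0856 and TFDP1 at -1.21 ± 0.0536 were lower in the authors' deposited table. Of 12 markers of maturing monocytes 5 were listed (41.7%, beside 45.3% of all tested genes), each as higher, where 21.4% of all tested genes were higher, with ITGAX at 1.66 ± 0.199 and CSF1R at 1.57 ± 0.147 the largest rises in the authors' deposited table. CD14, CD163 and S100A8 were among the 7 not listed, and the part of a change of cell state in the lower mitotic genes was not tested.

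**Figure D4:**
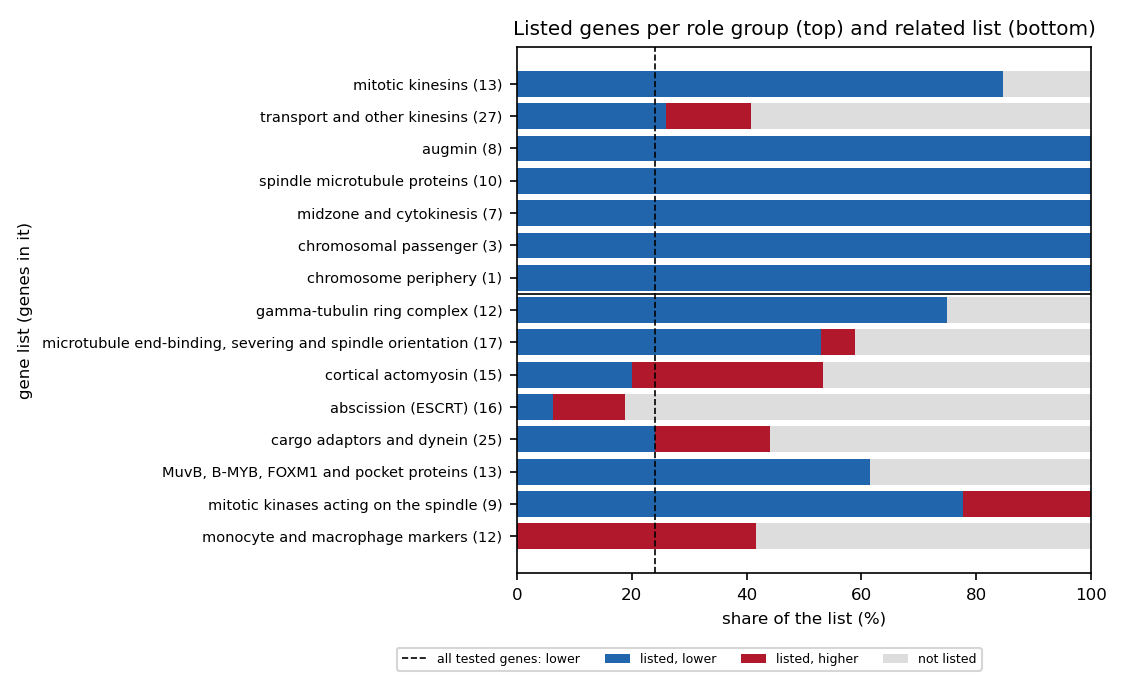
Bars give the percentage of each gene list that was listed as lower (blue), listed as higher (red) or not listed (grey), with the number of genes in brackets, role groups above the line and related lists below it; the dashed line is the 24.0% of all tested genes listed as lower. Augmin, spindle microtubule proteins and midzone and cytokinesis genes are blue throughout, the abscission list is mostly grey, and the monocyte list has 5 higher genes and none lower.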

How the data were processed

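RNA of 6 libraries, 3 with DMSO and 3 with 50 nM DEG-35, was compared by the authors, and the processed data are their table of that comparison. Per the file headers, its columns are the log2 fold change, the p-value and the adjusted p-value of each gene. The submitters' processing notes name hg19, STAR, featureCounts and DESeq2, without versions or order. The sources used here do not give how the log2 values deposited by the authors were scaled or shrunk, or how strand was handled. The adjusted p-values were used as deposited at 0.05. For all 2789 genes with p above 1e-04, adjusted p times rank over p lay within 0.1% of 15064, the number of tests taken. The implied standard error is the absolute log2 fold change over the normal quantile of its p-value, a Wald test being assumed, and intervals are 95%. That calculation was tested on simulated data.

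The genes and lists were chosen with earlier results of these data known, so no list was tested. Values are given for every listed member, at more length for the 3 largest changes per role and for members against their group's direction, and for up to 2 rises and 2 falls of each other list. AURKB, LIN54, RBL1, TFDP1, TACC1, DIAPH1 and overlapping genes were named after their values were seen. The protein stretches planned for kinesins are not used here. Promoter windows came from RefSeq (GRCh38.p14), the first start per gene (bases after the start matched the gene's own transcripts for 38 of 47 windows, and for 0 when reversed), and overlaps from GENCODE release 29 (GRCh38), for order and strand only. Alternatives were a stricter adjusted p, a minimum fold change, Bonferroni adjustment, an error limit, shifted fold changes, exact symbols and other promoter settings. Scripts ran in Python 3.11.15 with SciPy 1.17.1, NumPy 2.4.6, pandas 2.3.3 and Matplotlib 3.10.9.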

Additional observations from a re-analysis of the deposited data

How the results depend on the processing

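The counts of lower genes over all members and among mitotic kinesins, spindle microtubule proteins, midzone and cytokinesis genes and chromosomal passenger genes stayed within 1.5 times their values under all alternatives run. Of these alternatives, exact symbols could not change a count of members, and the downward shift could not lower a count of lower genes. Weaker were the counts that rest on small changes. Higher members numbered 1 rather than 5 at an adjusted p below 0.01, and 0 with Bonferroni adjustment over 15064 tests or a minimum absolute log2 fold change of 1; higher transport and other kinesins numbered 1, 0 and 0 under the same settings rather than 4. Lower transport and other kinesins fell from 7 to 4 with Bonferroni adjustment and to 2 with the minimum change, and lower augmin genes from 8 to 3 with the minimum change, in each case because the setting is stricter. The median log2 fold change of the members, -2.04, became -2.17 at an adjusted p below 0.01, -2.28 with the minimum change, -2.19 with Bonferroni adjustment, and -2.34 or -1.74 with all log2 fold changes shifted down or up by 0.3. The upward shift turned KIF1B to 0.0031 and KIF3B to 0.074, and no other member changed sign under either shift. The shift moves listed genes alone, so it does not give the counts of other scaling factors. Chosen after the data were seen were 2 promoter settings. With any annotated start, 25 of the 32 genes at least 1 lower held CHR letters, against 16.8% of listed genes and 19.5% of all RefSeq genes. This setting could not lower the count, and only 5 of the 32 genes had several starts. Within 50 bases of the start, 23 windows held them.

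No paired analysis was possible because the table has no values of single libraries, and for the same reason leaving out a replicate and the replicate block were not run. Depth is unknown, and values that depend on it were left out.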

Other observations

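The CHR letters were also counted in the promoter windows of listed genes outside the kinesin, spindle and cytokinesis group, by size of change. A match began within 50 bases of the start in 27 of 105 windows (25.7%) of genes at least 2 lower on the log2 scale, in 31 of 306 (10.1%) of those 1 to 2 lower and in 72 of 2308 (3.12%) of those less than 1 lower. Among genes that were higher, the share was 1.84% of 1847 windows for rises below 1 and 4.01% of 374 for larger ones. Among genes at least 1 lower, E2F letters stood in 71 of 411 windows outside the group (17.3%) and in 3 of 32 within it (9.38%), and CCAAT letters in 198 of 411 (48.2%) and 24 of 32 (75.0%). These shares describe the windows and were not tested, and the base composition of the windows was not matched.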
